A study of Mus musculus with 18 samples.

Results

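The data described here are the piRNA-labelled reads in small RNA libraries of mouse sperm. Each library's deposited table lists distinct small RNA sequences with a read count, a genome match flag and an annotation, and a sequence was taken as a member when the first name of its annotation contained piRNA. The 4 tables together held 207217 distinct sequences, of which 20816 were members, and all members carried the bare word piRNA as their only annotation. The libraries came from 2 wild-type (WT) sperm samples and 2 Isca2 -/- (KO) sperm samples. The Isca2 protein helps to build iron-sulfur clusters in mitochondria. Strain, age, number of animals and the way sperm were collected are not given in the sources used here, and nothing in the labels ties replicates to separate animals. The p-values therefore measure the spread between these libraries, which may be technical. Small RNA does not measure the Isca2 transcript, so the genotype labels could not be checked here. Fewer sperm and less RNA per sperm cannot be told apart in such bulk libraries.

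PIWI-interacting RNAs (piRNAs) are small RNAs of the germ line that guide PIWI proteins to transposon and other transcripts. They are longer than microRNAs. Primary piRNAs usually begin with uridine, read as T in sequencing, and secondary piRNAs made by the ping-pong cycle usually carry adenosine at the tenth base. In the mouse they are abundant in spermatocytes and round spermatids, and mature sperm carry mainly fragments of tRNA and rRNA.

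The libraries held 205993 reads in WT replicate 1, 703036 in WT replicate 2, 703133 in KO replicate 1 and 746812 in KO replicate 2, on sequences of 20 to 45 nucleotides (nt). WT replicate 2 stood apart in its rRNA share, 68.2% of reads, against 30.4% to 35.3% in the other 3 libraries. The label sperm was set beside small RNA markers. Of 18 spermatogenic microRNA families 16 had no read, among them mir-34b, mir-34c and mir-449a, and the list summed to 0 to 3 reads per library. A list of 10 epididymal or other epithelial microRNA families summed to 27, 96, 30 and 145 reads in WT 1, WT 2, KO 1 and KO 2, and 9 blood and muscle families to 0 or 1. Named microRNAs made up 0.0768% to 0.335% of all reads. The spermatogenic microRNAs that would mark germ cells were near 0, and the reason was not tested. Fragments of tRNA-Glu, known to be abundant in sperm, took 75939 to 174564 RPM (reads per 1000000 listed reads). Those of tRNA-Gly took 8778 to 17268 RPM.

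The members the results turn on are printed 5′ to 3′ with T for U. They are numbered by mean RPM over the 4 libraries within the set of 18 named sequences. The letter S marks a printed sequence, and the letter U marks a sequence without genome match and without a close relative in the tables, which is not printed. Genome positions and the genes at them were not analysed here. The first set is shown because it holds the most abundant member, S1, and 3 members that end at the same base and start 1, 2 or 3 bases earlier. All 4 match the genome, and the capital marks the first base.
S1: Aatttttgacagtctctacggagactg
start 1 base earlier: Caatttttgacagtctctacggagactg
S10: Gcaatttttgacagtctctacggagactg
S9: Ggcaatttttgacagtctctacggagactg

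The second set is shown because its members have no genome match and each differs by 1 base from an abundant fragment of another RNA, printed above it or, for S6, contained in the fragment printed above. In these the capital marks the changed base. Substitutions are written with the base of the named fragment first, then the position counted from 1 at the 5′ end of the member, then the base of the member. They are C25A in S4, C26A in S5, G2A in S8, A6C in S11, A19C in S12, G9T in S14 and C15T in S17. S6 carries G1T and could equally be read as the longer tRNA-Glu-CTC fragment with 1 G lost. S4 and S5 differ at their last base only. Each could equally be read as the mitochondrial tRNA-His fragment without its last base, with an A added at the 3′ end.
mitochondrial tRNA-His fragment: aaaaacattagactgtgaatctgaC
S4: aaaaacattagactgtgaatctgaA
mitochondrial tRNA-His fragment, 1 base longer at the 5′ end: aaaaaacattagactgtgaatctgac
S5: aaaaaacattagactgtgaatctgaA
tRNA-Glu-CTC fragment: tggttaggattcggcgctctc
S6: Tgttaggattcggcgctctc
S8: tAgttaggattcggcgctctc
S11: tggttCggattcggcgctctc
28S rRNA fragment: gacgtggcgacccgctgaatttaagc
S12: gacgtggcgacccgctgaCtttaagc
S14: gacgtggcTacccgctgaatttaagc
S17: gacgtggcgacccgTtgaatttaagc

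The last set holds S13, a form of S1 with the substitution C25A and no genome match, which was the printed member called between the genotypes, and 3 further genome-matched members. S7 was among the most abundant, S15 had 1 of the 4 smallest p-values among lower members, and S16 was the most abundant member above 32 nt.
S13: aatttttgacagtctctacggagaAtg
S7: Gatccttgactgaagctgatgatgcg
S15: Caattcagactactctcccccgccctct
S16: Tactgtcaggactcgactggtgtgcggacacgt

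The first comparison asked how much of each library carried the piRNA label. Members took 5474 reads in WT replicate 1, 11696 in WT replicate 2, 31984 in KO replicate 1 and 30100 in KO replicate 2. Their share of all listed reads was 2.66% (Wilson 95% interval 2.59% to 2.73%) and 1.66% (1.63% to 1.69%) in the WT libraries, and 4.55% (4.50% to 4.60%) and 4.03% (3.99% to 4.08%) in the KO libraries. Both KO libraries lay above both WT libraries, with means of 4.29% and 2.16% (n = 2 each). The exact two-sided permutation p was 0.333, the smallest that 2 against 2 libraries allow, so no such comparison can pass 0.05. These intervals and all others here cover counting error only, since no molecular identifiers are recorded.

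The share depended on what the library total held. With rRNA and tRNA reads left out of the denominator it was 7.86% and 9.65% in WT and 14.9% and 9.90% in KO. Genome-matched members alone took 1.84% and 1.07% of reads in WT and 1.92% and 3% in KO. Counted in edgeR's quasi-likelihood test as 1 of 122 annotation strings, all piRNA-labelled reads had a log2 fold change (KO over WT) of 0.53 ± 0.57 (SE) and a Benjamini-Hochberg adjusted p of 0.940. The KO libraries were higher under each denominator, but the difference did not pass the count test.

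Members were short for piRNAs. They spanned 20 to 34 nt, and reads of 24 to 32 nt made up 60.4% and 45.1% of members' reads in WT and 53.0% and 54.3% in KO. Reads of 20 to 23 nt, the range of microRNAs and of many degradation fragments, made up 39.4%, 54.7%, 46.9% and 45.6% in the same order. Only 8.55%, 5.30%, 4.67% and 7.41% fell between 29 and 32 nt. Mean length was 24.4 and 23.5 nt in WT and 23.8 and 24.1 nt in KO, and the groups overlapped in all 3 measures (exact permutation p = 1 for 24 to 32 nt).

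The profile had no single broad peak, and several of its maxima were made by single sequences. At 27 nt, S1 gave 219 of 504 reads in WT replicate 1, 778 of 1166 in WT replicate 2, 2631 of 3863 in KO replicate 1 and 2786 of 4166 in KO replicate 2. At 25 nt in WT replicate 1, S4 gave 370 of 854 reads. In KO replicate 1 the 21 nt class held 25.6% of members' reads, and 5048 of its 8183 reads were 1 unmatched sequence, U2. Counted as distinct genome-matched sequences, 52.3% and 38.4% of WT members and 44.8% and 42.8% of KO members were 24 to 32 nt long. The same share among unannotated genome-matched sequences was 66.7%, 57.2%, 62.4% and 61.0%. Members were thus the shorter class in all 4 libraries, by 17.3 percentage points on average (exact sign-flip permutation p = 0.125, the smallest 4 libraries allow).

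A first-base T was not the rule among members. T opened 25.4% and 26.8% of members' reads in WT and 18.7% and 25.5% in KO. The KO replicate 1 value went with a first-base C share of 36.6%, against 12.6% to 13.7% in the other libraries, and rose to 26.4% once the unmatched group described further on was left out. Weighted by distinct genome-matched sequences, which removes the pull of abundant ones, T opened 29%, 27.4%, 30% and 29.6% in WT 1, WT 2, KO 1 and KO 2. At bases 2 to 20 of the same sequences T made up 26.5%, 25%, 26.8% and 26.8%. The first base exceeded the later ones in 4 of 4 libraries, by 2.73 percentage points on average (exact sign-flip permutation p = 0.125).

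Unannotated genome-matched sequences opened with T as often. Their shares were 29.6%, 27.8%, 29.3% and 29.6%, and the mean difference of members from them was -0.0610 percentage points, with members higher in 2 of 4 libraries (exact sign-flip permutation p = 1). Restricted to 24 to 32 nt, members gave 29.3%, 29.2%, 30.3% and 31.4% and unannotated sequences 29.6%, 28.2%, 29.7% and 29.8%, with a mean difference of 0.748 points (exact sign-flip permutation p = 0.250). By length, T opened 41.2% to 43.7% of members' reads of 20 nt and only 6.78% to 15.1% of those of 27 nt, where S1 starts with A. The label therefore named sequences without the uridine bias or the length usual for piRNAs, and piRNA-labelled is used here in that sense.

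The tenth base, read in members of at least 24 nt that do not start with T, was A in 36.7% and 31.1% of reads in WT and 19.4% and 24.5% in KO. The groups did not overlap (exact permutation p = 0.333). Without the unmatched group described further on, the shares were 36.9% and 31.1% in WT and 26.5% and 24.6% in KO. Without members within 1 change of a named RNA, also described further on, they were 24.7% and 19.9% in WT and 10.9% and 17.8% in KO. The KO replicate 1 value thus depended on the unmatched group, and the level in every library on the members within 1 change of a named RNA. The part of these members in the difference was not tested. Among reads that start with T, where the ping-pong mark is not looked for, the shares were 32.8%, 22.4%, 29.4% and 31.9%. Weighted by distinct genome-matched sequences, A stood at the tenth base in 32.4%, 28.8%, 29% and 30.4% of those without a first T and in 28.1%, 24%, 27.9% and 26.2% of those with one. In that weighting the genotypes overlapped, with means of 30.6% in WT and 29.7% in KO.

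Most distinct members matched the genome, but many reads did not. In all, 17412 members carried the match flag and 3404 did not, and no sequence had a different flag or label in different libraries. Genome-matched members made up 82.3% and 77% of the distinct sequences in WT and 75.9% and 84.4% in KO. By reads the shares fell to 69.4% and 64.1% in WT and 42.3% and 74.5% in KO. KO replicate 1 was the low library by reads and stood close to WT replicate 2 by distinct sequences. Unannotated reads of up to 34 nt matched the genome in 49.9% and 45.1% in WT and 52.6% and 71.4% in KO. By reads, members thus matched more often than unannotated rows in every library except KO replicate 1.

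The low value in KO replicate 1 came with 1 group of 8 unmatched members of 20 to 28 nt that share their first 20 bases. The group had 27 reads in WT replicate 1, 98 in WT replicate 2, 9355 in KO replicate 1 and 151 in KO replicate 2. That is 0.493%, 0.838%, 29.2% and 0.502% of members' reads, so the excess was in 1 library and not in both of the KO genotype. Without the group, the genome match was 69.7% and 64.6% of reads in WT and 59.8% and 74.8% in KO, and the share of all reads with the piRNA label was 2.64% and 1.65% in WT and 3.22% and 4.01% in KO. Both KO libraries remained above both WT libraries in that share.

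Reads were concentrated on few members in every library, most of all in KO replicate 1. The 10 most abundant members of each library held 21.1% and 18% of members' reads in WT and 48.9% and 25% in KO (exact permutation p = 0.333). Without the unmatched group these were 21.2%, 18.1%, 31.2% and 25.2%. The number of members that together held 50% of reads was 430 and 466 in WT and 12 and 666 in KO. Below these lay a long tail, since members seen as a single read made up 78.5% and 58.4% of distinct members in WT and 57.1% and 49.7% in KO.

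Distinct members numbered 2961 and 4518 in WT and 6552 and 9326 in KO, in the order of the libraries' piRNA-labelled reads except between the 2 KO libraries. Thinned to the 5474 reads of the smallest library, the numbers became 2961 and 2741 in WT and 1871 and 2951 in KO. At equal depth 3 libraries thus lay between 2741 and 2961, and KO replicate 1 was low (exact permutation p = 0.667). Without the unmatched group KO replicate 1 reached 2453.

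Few members were shared. In all, 19145 members (92.0%) were seen in 1 library, 1054 in 2, 364 in 3 and 253 (1.22%) in all 4. Sharing was not counted over all 207217 sequences, so low sharing cannot be called particular to members. The 253 shared members nevertheless held 39.3% and 38.6% of members' reads in WT and 62.8% and 39.2% in KO. The shared members matched the genome less often than those of 1 library, in 42.3% against 86.0% of sequences. The abundant, recurring part of the class was therefore rich in sequences without a genome match.

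Unmatched members were compared with the other rows of the tables. Of 3404 unmatched members, 1399 were within 1 substitution, gained base or lost base of a row annotated as a named RNA (rRNA, tRNA, mitochondrial tRNA, snRNA, snoRNA or microRNA) with at least 10 reads. Another 155 were within 1 change of some other genome-matched row, and 1850 had no such relative. The search scored 1368 of the 1399 as substitutions, a number that its order favoured. It took a substitution wherever one was found and looked for a gained or lost base only otherwise. A base gained at either end of a read was not looked for. By reads, relatives of a named RNA made up 78.1% and 74.9% of unmatched reads in WT and 35.9% and 70.5% in KO. Among genome-matched members the same search found 1.24%, 1.36%, 1.20% and 0.683% of reads.

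The piRNA label held more such relatives than the unannotated class. Among distinct unmatched sequences, 50% and 56.6% of members in WT and 42.5% and 43.4% in KO lay within 1 change of a named RNA. For unannotated unmatched sequences the shares were 20.4%, 24.9%, 20.7% and 20.4%. Members were higher in 4 of 4 libraries, by 26.5 percentage points on average (exact sign-flip permutation p = 0.125). The classes were not matched by length here, and members were the shorter class among genome-matched sequences. The part of length in this difference was not tested. By reads the order turned in KO replicate 1, where members had 35.9% and unannotated reads 51.9%.

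Mitochondrial tRNA-His, the transfer RNA for histidine encoded in mitochondrial DNA, had the most member reads among relatives when the 4 libraries were summed. In WT replicate 2, relatives of 28S rRNA (1152 reads) and of tRNA-Glu-CTC (886) had more. Its 173 piRNA-labelled relatives, led by S4 and S5, took 693 and 447 reads in WT and 2736 and 2164 in KO. They stood at 1.73% and 1.25% of the reads annotated as that tRNA in WT and at 2.05% and 2.33% in KO. As a share of members' reads they were 12.7%, 3.82%, 8.55% and 7.19%, lowest in WT replicate 2. S4 itself had 370 and 139 reads in WT and 1194 and 958 in KO, which is 1.29%, 0.612%, 1.32% and 1.61% of the reads that hold its unchanged form. In RPM, S4 was 1796 and 198 in WT and 1698 and 1283 in KO, a wider range than that of its share of the unchanged form. S5 had 133, 108, 862 and 673 reads in WT 1, WT 2, KO 1 and KO 2, or 0.522%, 0.535%, 1.10% and 1.31% of its unchanged form, with both KO shares above both WT shares.

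Relatives of tRNA-Glu-CTC, the transfer RNA whose 5′ fragments are abundant in sperm, numbered 127 and took 328 and 886 reads in WT and 2541 and 1929 in KO. They stood at 1.95% and 2.20% of reads annotated as that tRNA in WT and at 2.15% and 2.39% in KO. S8 had 57, 83, 510 and 344 reads in WT 1, WT 2, KO 1 and KO 2. This was 0.603%, 0.575%, 0.620% and 0.668% of the reads of its unchanged form, while its level went from 118 to 725 RPM. S11, changed at another base of the same fragment, had 25, 64, 345 and 213 reads and stood at 0.264%, 0.444%, 0.419% and 0.414%. S6 had 57, 174, 647 and 635 reads, or 0.446%, 0.822%, 0.602% and 0.931%. The levels of S6, S8 and S11 in RPM were higher in both KO libraries than in both WT libraries, as was the tRNA-Glu sum, at 91678 and 75939 RPM in WT and 174564 and 121443 in KO.

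Relatives of 28S rRNA, the RNA of the large ribosomal subunit, were the most diverse with 411 members. They took 174 and 1152 reads in WT and 794 and 589 in KO, or 0.335%, 0.297%, 0.584% and 0.375% of reads annotated as 28S rRNA. S12 had 40 and 371 reads in WT and 78 and 104 in KO, highest in WT replicate 2, the library with the most rRNA. It stood at 0.126% and 0.153% of its unchanged form in WT and at 0.153% and 0.113% in KO. Relatives of any rRNA made up 4.90% and 12.9% of members' reads in WT and 3.42% and 3.32% in KO.

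A few relatives stood far above these small percentages. Members related to tRNA-Asp-GTC, 50 in all, stood at 11.4%, 12.4%, 14.1% and 13.0% of the reads annotated as that tRNA. The most abundant of them, with the substitution A6T, is printed beside its unchanged fragment, as is the most abundant relative of tRNA-Arg-CCG, because the changed forms were so frequent.
tRNA-Asp-GTC fragment: gttcaAttccccgacggggagc
leading member: gttcaTttccccgacggggagc
tRNA-Arg-CCG fragment: attgtgggttcgAgtcccatctgggt
leading member: attgtgggttcgTgtcccatctgggt
The tRNA-Asp member had 5, 14, 36 and 62 reads against 18, 64, 94 and 122 reads of its unchanged form, which is 27.8%, 21.9%, 38.3% and 50.8%. The tRNA-Arg-CCG member, with A13T, had 1, 13, 35 and 19 reads against 1, 3, 10 and 3, so the changed form was as frequent as the unchanged one or more so in all 4 libraries. Both were chosen after their values were seen, and the counts behind them are low.

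The second comparison asked which single sequences differed between KO and WT. Counts of all distinct sequences were fitted together with edgeR's quasi-likelihood test, and 2877 sequences had enough reads to be tested, 136 of them members. The other 20680 members were too rare to test. Of all sequences tested, 0.348% were called higher in KO and 0.0695% lower at a Benjamini-Hochberg adjusted p under 0.05. Of the 136 members, 2 were called higher, S13 and U3, and 0 lower. At an unadjusted p under 0.05 edgeR gave 9 higher and 5 lower of the 136 members, beside 151 higher and 172 lower of all 2877 sequences. DESeq2 also called 0 members lower, beside 9 higher and 8 lower of all 2877 sequences. With limma-voom 0 of all 2877 sequences were called in either direction, so its 0 lower members say nothing particular to members.

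S13 was nearly restricted to KO sperm. It had 0 and 2 reads in WT and 249 and 129 in KO, or 0 and 2.84 RPM against 354 and 173 RPM. Over the pooled reads of each genotype the KO to WT ratio was 118 (exact 95% interval 32.6 to 982). This interval covers counting error only and leaves out the spread between libraries. S13 was also singled out by its call in these same counts, so the ratio is no separate evidence. The fitted log2 fold change was 6.34 ± 1.25 (SE, n = 2 libraries per genotype), a size that depends on the prior count because of the near-empty WT libraries, with an edgeR adjusted p of 0.00970. The call was lost without KO replicate 1 (edgeR adjusted p = 0.640) and without KO replicate 2 (0.0839), although the fitted log2 fold change was 5.74 and 6.87 in these fits, in which the spread comes from the WT pair and the lone KO library is assumed to vary like it. It was also lost with limma-voom (adjusted p = 0.313), which called 0 of all 2877 sequences, so this loss is not particular to S13.

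The level of S13 can be set against S1, the genome-matched form it differs from at 1 base. S1 had 219 and 778 reads in WT and 2631 and 2786 in KO. Of the reads of both forms, S13 made up 0 of 219 in WT replicate 1, which allows a share of up to 1.37% by a floor of 3 reads and has a Wilson upper limit of 1.72%, and 2 of 780 in WT replicate 2, or 0.256% (Wilson interval 0.0703% to 0.930%). In KO replicate 1 it made up 249 of 2880, or 8.65% (7.67% to 9.73%), and in KO replicate 2, 129 of 2915, or 4.43% (3.74% to 5.23%). Counting every row that holds the last 13 bases of either form, whatever its start or label, gave 1 of 408 and 4 of 1096 reads in WT and 324 of 3658 and 215 of 4278 in KO, which is 0.245%, 0.365%, 8.86% and 5.03%. The shares of the 2 KO libraries lay above those of both WT libraries beyond counting error, and they also differed from each other by more than that error. S13 was chosen by its call in these same counts, so these shares are no separate evidence. The wider count is no separate check either, since S13 itself gave 249 of its 324 changed reads in KO replicate 1 and 129 of 215 in KO replicate 2.

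U3 was a finding of 1 library. This unmatched sequence of 25 nt, of the group that filled KO replicate 1, had 9 and 1 reads in WT and 3941 and 49 in KO. Its fitted log2 fold change was 7.06 ± 1.56 (SE) with an edgeR adjusted p of 0.0284. Without KO replicate 1 the log2 fold change was 1.46 and the edgeR adjusted p 0.996. KO replicate 2, at 65.6 RPM, was close to WT replicate 1, at 43.7 RPM. U2, the 21 nt member of the same group, had 14, 42, 5048 and 62 reads and missed the threshold (edgeR log2 fold change 5.42 ± 1.34, adjusted p = 0.0645).

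The abundant genome-matched members did not pass the test. S1 was at 1063 and 1107 RPM in WT and at 3742 and 3731 RPM in KO, so replicates lay close together and the groups did not overlap. After TMM scaling its log2 fold change was 1.34 ± 0.89 (SE) with an edgeR adjusted p of 0.592. S9 and S10, the forms that start 3 and 2 bases earlier, did not separate the genotypes. S9 had 70, 103, 215 and 495 reads, or 340, 147, 306 and 663 RPM, and S10 had 48, 56, 160 and 388 reads, or 233, 79.7, 228 and 520 RPM. The form that starts 1 base earlier than S1 had 40, 39, 104 and 191 reads. S1 made up 58.1% and 79.7% of the reads of the 4 co-terminal forms in WT and 84.6% and 72.2% in KO, and these shares overlapped between genotypes. Together the 4 forms were 6.89% and 8.34% of members' reads in WT and 9.72% and 12.8% in KO.

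S7 varied more within a genotype than between them. It had 120 and 40 reads in WT and 225 and 748 in KO, or 583, 56.9, 320 and 1002 RPM, with an edgeR log2 fold change of 0.91 ± 0.93 (SE). The 9 members that share its first 20 bases took 188, 168, 463 and 1295 reads. S16, at 33 nt the most abundant of the longest members, had only 4, 6, 14 and 18 reads, with an edgeR log2 fold change of 0.39. U18, an unmatched member of the same length, had 1, 5, 2 and 3 reads and was not tested.

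The members with the smallest p in the lower direction were S12, S14 and S17, all changed forms of 1 fragment of 28S rRNA, and the genome-matched S15. S14 had 7 and 23 reads in WT and 7 and 4 in KO, and S17 had 4 and 15 in WT and 2 and 1 in KO. S15 had 9 and 13 reads in WT and 4 and 4 in KO. Their edgeR log2 fold changes were -2.12 for S12, -2.54 for S14, -3.64 for S17 and -2.71 for S15, and their adjusted p-values lay between 0.278 and 0.347. None passed the threshold. In RPM, S12 was highest in WT replicate 2, the library with the highest rRNA share, at 528 against 194 in WT replicate 1, whereas S14 (34.0 and 32.7 RPM in WT 1 and WT 2) and S17 (19.4 and 21.3 RPM) were alike in the WT libraries. As a share of the unchanged fragment, S14 stood at 0.0221%, 0.00949%, 0.0137% and 0.00435% and S17 at 0.0126%, 0.00619%, 0.00393% and 0.00109% in WT 1, WT 2, KO 1 and KO 2. The part of rRNA content in these differences was not tested.

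Over all 136 tested members the median log2 fold change was 0.37, against 0.09 over all 2877 sequences tested, and 86 members had a positive value. Both KO libraries lay above both WT libraries for 24.3% of members, against 23.6% of all sequences tested, and below them for 10.3%, against 17.9%. The share of higher members was thus near the background. Scaled to library totals in place of TMM, the median of all sequences moved from 0.09 to 0.46, that of members to 0.66, and 100 of 136 members were positive. The members' median exceeded that of all sequences by 0.28 with TMM, 0.28 with RLE size factors and 0.20 with library totals, but by 0.15 without KO replicate 1 and by 0.00 with no filter on low counts. The members' own median was 0.16 without KO replicate 1 and 0.73 without WT replicate 1.

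By kind, the 68 tested genome-matched members had a median log2 fold change of 0.46 with 51 positive, and the 68 unmatched ones a median of 0.06 with 35 positive. Members related to tRNA had a median of 0.50 (24 members), those related to mitochondrial tRNA 0.32 (14 members) and those related to rRNA -0.60 (19 members). Sequences annotated as tRNA, mitochondrial tRNA and rRNA had medians of -0.37, -0.05 and -0.17 in the same fit. Of the 57 tested members related to a named RNA, 34 had an RPM ratio between genotypes within 1 log2 unit of 0. Expressed as a share of the unchanged form in the same library, 35 did. The narrow range of the shares of S8 and S12 was therefore not general among the tested relatives.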

How the data were processed

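The 4 sperm tables were used. Per the file headers they hold, for each distinct sequence, its length, whole-number read counts as deposited, a genome match flag and an annotation. The submitters' processing notes name, without roles, the build mm10/GRCm38 and the tools DESeq2 1.42.1, RSEM 1.3.1, Trim Galore 0.4.5 and STAR 2.6.1c. The annotation tool and the library kit for sperm are not given in the sources used here, and the labels repeat a blastocyst protocol for sperm. RPM is reads per 1000000 listed reads. Shares have Wilson 95% intervals and exact permutation tests over 4 libraries. Counts of all distinct sequences were fitted with edgeR 4.0.16 (R 4.3.3, filterByExpr, TMM, quasi-likelihood, Benjamini-Hochberg, threshold 0.05), beside DESeq2 1.42.0 and limma 3.58.1. The edgeR code was also run on simulated counts at a fixed dispersion of 0.05. That dispersion was not taken from these libraries, so the run does not show how the test behaves at their spread. The standard error is the log2 fold change over the root of F. Named sequences were the 5 most abundant, 2 per length range, called ones (at most 6 per direction, or the 4 smallest p-values where none was called) and the 3 largest groups sharing 20 first bases. S7, S8 and S11 and all searches for relatives were added after values were seen. Members and lists were chosen with earlier results of these data known. Oocyte RNA and blastocyst methylation libraries were not analysed here.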

Additional observations from a re-analysis of the deposited data

How the results depend on the processing

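No share or length could pass its test at 2 against 2 libraries, so only directions are compared. Of 82 alternatives to the 8 shares and lengths (KO minus WT), 67 kept the direction and 15 reversed it, and the causes were not tested. The 67 include 1 alternative for each of the 8 measures that could not differ. It accepted piRNA anywhere in the annotation, which chose the same rows. Mean length (-0.000744 nt) became 0.372 with genome-matched members, 0.153 without the 10 most abundant, 0.201 without the unmatched group and 0.0132 without relatives of named RNAs, and ranged from -0.449 to 0.447 with 1 library left out. The 24 to 32 nt share (0.864 points) became -1.83 with at least 2 reads and -1.11 by distinct sequences, and ranged from -6.80 (without WT replicate 2) to 8.53. The genome match (-8.36 points) became 0.518 by distinct sequences and 0.126 without the group, and ranged from -24.4 to 7.72 (without KO replicate 1). Distinct members at equal depth (-440) became 274 with at least 2 reads and ranged from -980 to 100 (without KO replicate 1). First-base T (-3.99 points) became 0.656 by distinct sequences and -0.238 without the group, and ranged from -7.38 (without KO replicate 2) to -0.589 (without KO replicate 1). The share of reads (2.13 points) ranged from 1.63 to 2.63 and the top 10 share (17.5 points) from 5.53 (without KO replicate 1) to 29.4 with 1 library left out. Members called numbered 2, beside 10 higher and 2 lower of all 2877 sequences. They numbered 1 with RLE factors (7 higher and 2 lower of all), library totals (6 and 0) or DESeq2 (9 and 8). This was S13 each time, and DESeq2 gave 56 members no adjusted p. With limma-voom or sums per annotation or per 20 first bases, 0 members and 0 of all were called. With a filter of 10 reads in 2 libraries 4 members were called, all higher, beside 33 higher and 7 lower of all 2540 sequences. Members called numbered 5 when members were fitted alone (3 higher and 2 lower, 50 of 116 positive, median log2 fold change -0.08). With 1 library left out they ranged from 0 (without KO replicate 1) to 25 (without WT replicate 1, 16 higher and 9 lower of 204 members tested, beside 269 and 294 of all 3964 sequences) and were 4 without WT replicate 2 (of 183, beside 17 higher and 16 lower of all 3779). With the replicate number as a block 3 members were called, all higher, beside 14 higher and 2 lower of all 2877 sequences. Same-numbered libraries share only a number: their deviations correlated at -0.07 over 2877 sequences. Rare members set the limit of depth, since 20680 of 20816 could not be tested.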
